A study of Brassica napus with 6 samples.

Results

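miR160 is an ancient plant microRNA family, and its 5p strand guides the cutting of mRNAs of auxin response factors. In Arabidopsis these are ARF10, ARF16 and ARF17, transcription factors that act mainly as repressors of auxin-responsive genes, and miR160 is known there for its part in the shaping of embryos, leaves, flowers and fruits. Both strands leave the same hairpin precursor: the 5p strand is the usual guide loaded into ARGONAUTE, and the 3p strand is the passenger that is usually degraded. The family was followed here in young pistils and siliques (seed pods) of rapeseed, Brassica napus, an allotetraploid that carries an A and a C subgenome. Its members were the rows of the known-miRNA tables with family number 160, which gave 3 of 69 rows (ath-miR160a-5p, ath-miR160a-3p and aly-miR160b-3p, named after Arabidopsis thaliana and Arabidopsis lyrata). To these were added the entries of the degradome tables with miR160 in the miRNA name, 6 of 577 in the short-silique table and 3 of 162 in the long-silique table.

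Short-silique (SS) plants were compared with long-silique (LS) plants, both taken from backcross progeny of the cross 8008 × 4942 and field grown. Each stage was taken from about 12 plants, over 0 to 7 days after pollination, so each library mixes open flowers' pistils with growing siliques. There were 2 small RNA libraries per line and 1 degradome library per line. A degradome library captures the 5′ ends of cut polyadenylated RNA, which mark where a transcript was cleaved. In tissue of mixed cell types, fewer cells with a small RNA and less of it per cell cannot be told apart.

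The library totals given by the authors lay between 6046506 and 6739286 reads, of which known miRNAs took between 6.496% and 6.508% in SS and 4.82% in each LS library. Counts of known miRNAs in the LS pair differed by no more than sampling noise (chi-square of 0.958 per degree of freedom over 48 miRNAs, p = 0.556), so that pair was counted as 1 sample and LS levels are given with a 95% Poisson interval. The SS pair differed somewhat more (chi-square of 1.63 per degree of freedom over 51 miRNAs), and SS levels are given as mean ± SD over both libraries. Nothing in the labels ties each library to a culture or plant of its own beyond a mention of replicated experiments, so p-values measure the spread between these libraries. Intervals cover counting error alone.

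The sequences come first, with the sites that were assigned to the family. The degradome tables name the miRNA bna-miR160d, 21 bases long, and print it in DNA letters, and every miR160 entry of both tables carries this same sequence, which is that of the guide (5p) strand of the family. The small RNA tables give names and no sequences, and bna-miR160d is not among their names. Below, the first line is the miRNA with its seed, bases 2 to 8, in capitals, and the other lines are the paired stretches of the 6 target mRNAs, 5′ to 3′, with the bases opposite the seed in capitals.
bna-miR160d: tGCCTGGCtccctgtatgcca
BnaA07g20790D: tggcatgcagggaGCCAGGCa
BnaC06g20640D: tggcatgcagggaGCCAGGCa
BnaA07g33740D: cggcatgcagggaGCCAGGCa
BnaC06g38360D: cggcatgcagggaGCCAGGCa
BnaA07g13830D: gggaatacagggaGCCAGGCa
BnaC04g15900D: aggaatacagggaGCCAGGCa

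The 6 targets fall into 3 pairs of near-identical sites, each with 1 member whose identifier places it in the A subgenome and 1 in the C subgenome. BnaA07g20790D and BnaC06g20640D shared the same 21 bases, as did BnaA07g33740D and BnaC06g38360D. BnaA07g13830D and BnaC04g15900D differed by 1 base, G1A, counted from the 5′ end of the site. Between the pairs headed by BnaA07g20790D and BnaA07g33740D the difference was also a single base, T1C. BnaA07g13830D differed from BnaA07g20790D at 3 bases, G1T, A4C and A7G. None of the 471 target identifiers of the degradome tables was found in the gene table used here, so the targets carry no gene name, and which of them are auxin response factor genes is not known from these files.

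Every one of the 6 sites paired with the miRNA without a mismatch or wobble from base 2 to base 14 of the miRNA, a stretch that covers the seed and the centre, where ARGONAUTE cuts. The departures all lay towards the 3′ end of the miRNA. BnaA07g20790D and BnaC06g20640D had 20 paired bases and a G:U wobble at miRNA base 15, and the authors' alignment score was 0.5. BnaA07g33740D and BnaC06g38360D had the wobble at base 15 and a mismatch at base 21, with a score of 1.5. BnaA07g13830D and BnaC04g15900D had no wobble, but mismatches at bases 18 and 21, with a score of 2. A lower score is a better match, and in all 6 sites it equalled the number of mismatches plus 0.5 for a wobble. No degradome entry of any miRNA scored above 4.5, so close pairing may be partly a condition of being listed. The share of other entries fully paired from base 2 to base 14 is not given here.

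**Figure D1:**
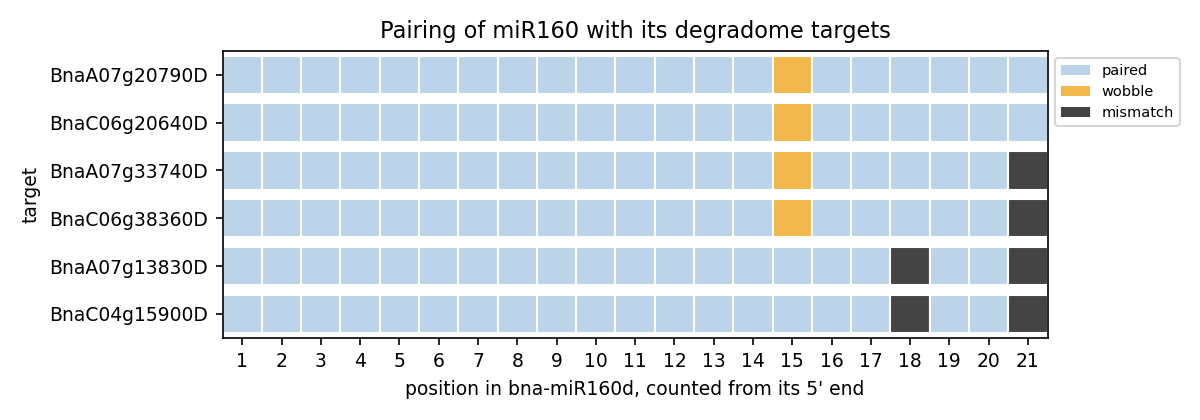
Pairing of the 6 targets (rows) with the 21 bases of bna-miR160d (columns, counted from its 5′ end), in blue for a paired base, orange for a G:U wobble and dark grey for a mismatch. All departures from full pairing lie at bases 15, 18 and 21, and bases 2 to 14 are paired in each target.

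The degradome tables were compared to see where miR160 targets were cut in each line. Up to BnaA09g07450D, the last target of the LS table, which breaks off inside that entry, SS held 3 miR160 sites and LS held 3, and all 3 were the same site in both, 100% of each list. Over that stretch SS held 193 entries of all miRNAs and LS held 162. The share of those that matched is not given here, so the 100% cannot be read as particular to miR160. BnaA07g13830D was listed with a cut at position 1354 of its mRNA, BnaA07g20790D at position 1297 and BnaA07g33740D at position 352, in the SS and in the LS library alike. The C-subgenome targets BnaC04g15900D (position 1339), BnaC06g20640D (position 1294) and BnaC06g38360D (position 1270) were listed in SS. They sort after the last target of the LS table and were not analysed here for LS, so they give no difference between the lines. With 1 degradome library per line there is no replicate check.

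All 6 SS entries and all 3 LS entries were in category 0, the lowest of the authors' classes from 0 to 4, and their deposited p-value was written as 0. In common degradome schemes category 0 marks a cut end that is the highest on its transcript, but the tool behind these tables is not given in the sources used here. For comparison, 69.9% of the 382 known-miRNA entries in SS and 95.8% of the 95 in LS were in category 0, and 22.3% in SS and 41.1% in LS had a p-value written as 0. The LS table breaks off early, so these shares cover different targets and do not compare the lines. The median score of known-miRNA entries was 2 in both tables, against 1.5 for the miR160 entries in each. No other miRNA was listed at any of the 6 targets. The tables hold no read numbers at the sites, so the strength of cutting could not be compared between the lines.

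The small RNA libraries were compared next, 1 row at a time. ath-miR160a-5p, the usual guide strand, had 17 and 11 reads in the SS libraries and 81 and 86 in the LS libraries. Scaled to 1000000 reads of the library total (RPM, reads per 1000000) this was 2.81 and 1.72 in SS, against 12.6 and 12.8 in LS. The groups did not overlap, and each SS value lay below each LS value by more than the counting intervals, which reached up to 4.50 RPM in SS library 1 and down to 10.0 RPM in LS library 1. The share of all 69 rows that separate in this way is not given here, and 51.9% of the 52 tested miRNAs were called in the test below. The mean was 2.26 ± 0.773 RPM in SS (SD, n = 2) and the level in LS was 12.7 RPM (10.8 to 14.8), a ratio of SS to LS of 0.177 (exact counting interval 0.114 to 0.265). Among the 69 known miRNAs, ath-miR160a-5p stood at rank 42 and 48 by reads in the SS libraries, against 31 and 32 in the LS libraries.

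ath-miR160a-3p, the usual passenger strand though loading was not measured here, was the most abundant member in every library. It had 527 and 524 reads in SS and 466 and 495 in LS, or 87.2 and 81.8 RPM in SS against 72.7 and 73.4 RPM in LS. On this scale both SS values lay above both LS values, with a mean of 84.5 ± 3.76 RPM in SS (SD, n = 2) and 73.1 RPM in LS (68.5 to 77.9). Known miRNAs as a whole also took a larger share of the reads in SS, and the share of all rows that separate so is not given here. It stood at rank 19 in both SS libraries and 20 in both LS libraries.

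aly-miR160b-3p, a 3p strand named for the miR160b hairpin, had 62 and 57 reads in SS and 62 and 63 in LS. That was 10.3 and 8.90 RPM in SS, against 9.67 and 9.35 RPM in LS, and the lines overlapped. The ratio of SS to LS was 1.01 (exact counting interval 0.776 to 1.30). Of all 3p reads of the family, aly-miR160b-3p held 10.5% and 9.81% in SS, against 11.7% and 11.3% in LS. If the 2 sequences are close, reads could be shared between the 3p rows in a way the tables do not resolve.

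Summed over the 3 rows, the family had 606 and 592 reads in SS and 609 and 644 in LS. The mean of this sum was 96.3 ± 5.49 RPM in SS (SD, n = 2) and its level in LS was 95.3 RPM (90.1 to 101), a ratio of 1.01 (0.932 to 1.09). The 3p rows made up most of this sum in each library, so it shows little of the 5p row.

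**Figure D2:**
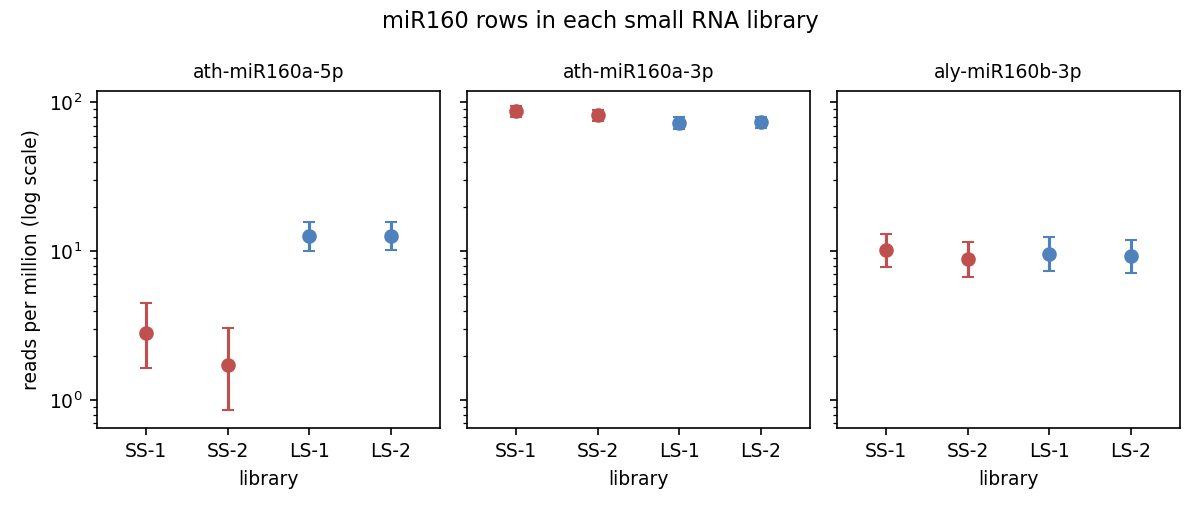
Reads per 1000000 of the library total (RPM, log scale) of the 3 miR160 rows in each small RNA library, SS in red and LS in blue, with 95% Poisson intervals. ath-miR160a-5p lies at 2.81 and 1.72 RPM in SS and at 12.6 and 12.8 RPM in LS, whereas the 3p rows lie close together in the 4 libraries.

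A fit with edgeR (quasi-likelihood, TMM scaling) covered the 52 known miRNAs with enough reads, and 1 of the 3 members was called, lower in SS. The log2 fold change of ath-miR160a-5p, SS over LS, was -2.78 ± 0.27 (SE, edgeR adjusted p = 7.1e-17). That fit kept the LS libraries apart, so its p-values may be too small, and the value was -2.79 ± 0.40 with the LS libraries summed into 1 sample (edgeR adjusted p = 3.34e-08). The call is one of many: 51.9% of the tested miRNAs were called in either direction and 17.3% were called lower. Of the 27 calls 18 were higher in SS and 9 were lower. Scaling to the authors' totals gave 33 that were higher and 3 that were lower, RLE scaling gave 14 and 11, no scaling factor gave 15 and 13, and leaving out LS library 2 gave 15 and 5. ath-miR160a-5p had the second lowest fold change of the 52, after bol-miR398a-5p at -3.11 ± 0.67.

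The 3p rows were not called by this test. ath-miR160a-3p was at -0.09 ± 0.05 (SE, edgeR adjusted p = 0.258) and aly-miR160b-3p at -0.29 ± 0.20 (edgeR adjusted p = 0.247). The direction of ath-miR160a-3p depended on the scaling. With the authors' library totals it was higher in SS at 0.21 and past the test (edgeR adjusted p = 0.0022), where 63.5% of all tested miRNAs were called higher, and with no factor it was lower at -0.22 and past the test (edgeR adjusted p = 0.00121). The median of all tested miRNAs was 0.12 with TMM factors and 0.41 with the authors' totals, and relative to the median of its own fit ath-miR160a-3p was at -0.20, aly-miR160b-3p at -0.40 and ath-miR160a-5p at -2.90 under each of 4 scalings. aly-miR160b-3p was at 0.0079 with the authors' totals (edgeR adjusted p = 0.988). ath-miR160a-5p was lower and called under each of these scalings.

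**Figure D3:**
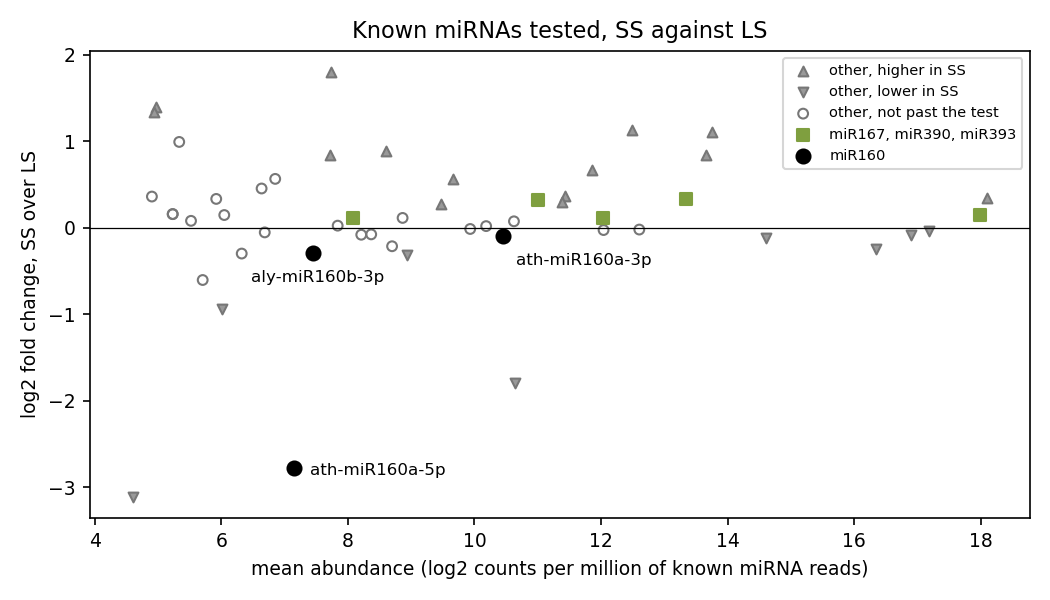
Log2 fold change, SS over LS, against mean abundance (log2 of counts per 1000000 known miRNA reads) for the 52 tested miRNAs. ath-miR160a-5p (black, -2.78) lies far below zero, and the 3p rows of its family (-0.09 and -0.29) and the other auxin-linked families (green squares) lie near zero.

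**Figure D4:**
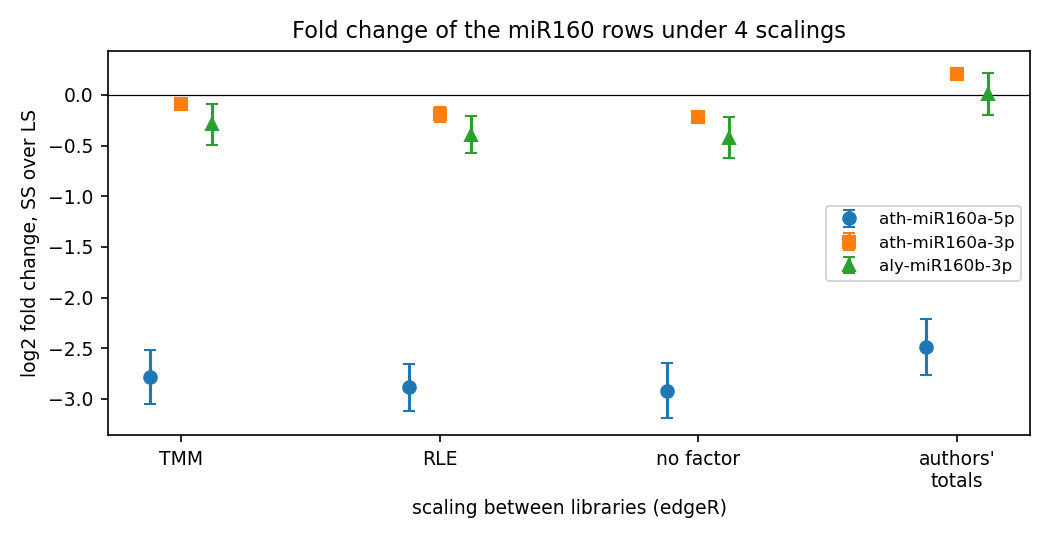
Log2 fold change, SS over LS, of the 3 miR160 rows under 4 ways of scaling the libraries, with the standard error of edgeR as bars. ath-miR160a-5p lies between -2.92 and -2.49, while ath-miR160a-3p moves from -0.22 with no factor to 0.21 with the authors' totals.

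In the authors' deposited tables, which compare 1 library with 1 library, ath-miR160a-5p was marked as changed in both numbered pairs, with a log2 value of -2.17 in pair 1 and -2.89 in pair 2. In each pair the authors' deposited tables marked 20.3% of the 69 rows. ath-miR160a-3p was at 0.26 and 0.16 and aly-miR160b-3p at 0.084 and -0.071 in the authors' deposited tables, all without a mark.

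The arms were then compared within each library, a ratio that does not depend on how the libraries are scaled. The 5p strand rested on 1 row, against 2 for the 3p strand, and bna-miR160d had no row. Other 5p reads may be uncounted. Among these rows the 5p strand was the minor product in all 4 libraries. It made up 2.81% of miR160 reads in SS library 1 (Wilson 95% interval 1.76% to 4.45%) and 1.86% in SS library 2 (1.04% to 3.30%), against 13.3% in LS library 1 (10.8% to 16.2%) and 13.4% in LS library 2 (10.9% to 16.2%). The lines did not overlap, and the LS shares were almost equal. Of the other families tested below, miR158 and miR2111 did not overlap between the lines either, and miR171 did. For the rows named miR160a alone, 31.0 and 47.6 reads of the 3p strand were found per read of the 5p strand in SS, against 5.75 and 5.76 in LS. These rows come without sequences, so their reads could not be placed on a single hairpin.

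The difference in mean 5p share was -11.0 percentage points, SS minus LS. An exact permutation test over the libraries, two-sided, gave p = 0.33, the smallest value that 2 libraries against 2 can give. On the counts of single libraries, Fisher's exact test separated each SS from each LS library, with adjusted p between 1.66e-14 and 8.95e-12 over 6 comparisons (Benjamini-Hochberg; raw p between 2.77e-15 and 5.97e-12). It did not separate the SS libraries (adjusted p = 0.408, raw p = 0.34 by Fisher's exact test) or the LS libraries (adjusted p = 1, raw p = 1 by Fisher's exact test). These tests compare libraries and not the lines.

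edgeR's test of the arm-by-line term gave a log2 change in the 5p to 3p ratio of -2.67 ± 0.29, SS against LS (SE, edgeR adjusted p = 6.81e-05 over the 4 families that had enough reads of both arms). Of these 4 families, 3 were called, 75%, so a call is common here. With the LS libraries summed into 1 sample the change in miR160 was -2.67 ± 0.57 (SE, edgeR), a wider error. On the log2 ratio, limma gave -2.67 ± 0.26 (SE, limma adjusted p = 0.014). With the library number as a replicate block it gave a limma adjusted p of 0.0443. Leaving out a single LS library ended the call by edgeR, at -2.68 without LS library 1 (adjusted p = 0.0536) and -2.67 without LS library 2 (adjusted p = 0.056). The size of the change was -3.005 without SS library 1 and -2.40 without SS library 2. The difference between the log2 fold changes of ath-miR160a-5p and ath-miR160a-3p was -2.69 or -2.70 in each of the 4 scalings.

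In the other families the arms behaved in different ways. miR2111, of the phosphate response, had a 5p share of 30.6% and 42.6% in SS, against 11.9% and 15.6% in LS. Both arms together had 42 to 64 reads a library, and the 5p arm had 15 and 20 in SS and 5 and 10 in LS. bna-miR2111c, whose name gives no arm, was not in these sums. The miR2111 ratio changed by 1.79 ± 0.61 (edgeR adjusted p = 0.0255), towards the 5p arm in SS. miR158 changed by -0.06 ± 0.01 (edgeR adjusted p = 0.000556), with a 5p share between 95.01% and 95.23% in the 4 libraries. miR171, a family known for its GRAS targets, was not called, at 0.10 ± 0.19 (edgeR adjusted p = 0.629). The sums of these families mix rows of different hairpins. Whether the change in miR160 differed from that in the others was not tested.

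**Figure D5:**
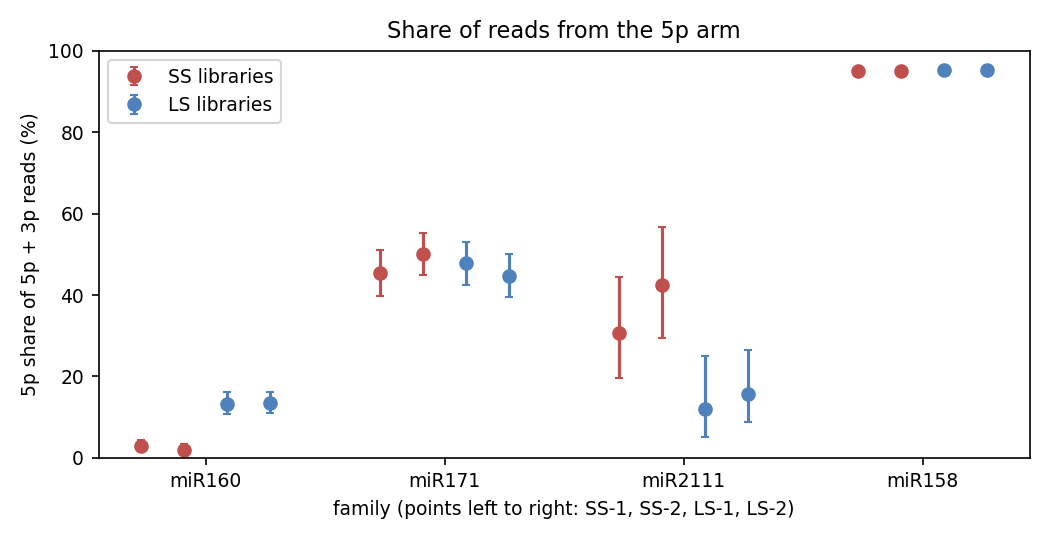
Share of the 5p arm among 5p and 3p reads of the 4 families with enough reads of both, per library, SS in red and LS in blue, with Wilson 95% intervals. The miR160 share is 2.81% and 1.86% in SS and 13.3% and 13.4% in LS, and the miR2111 share is higher in SS than in LS.

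The other auxin-linked families were set beside miR160. They were miR167, which acts on ARF6 and ARF8 in Arabidopsis, miR390, which starts the small RNAs against ARF3 and ARF4 there, and miR393, which acts on auxin receptors of the TIR1 family. Of their 7 rows 5 were tested, and 4 were called higher in SS and none lower, where 34.6% of all tested miRNAs were called higher. With the authors' library totals 5 were called higher (63.5% of all tested miRNAs), and with the LS libraries summed 3 were (30.8% of all). The number was 2 under RLE scaling (26.9% of all), 2 without a factor (28.8% of all) and 1 by DESeq2 (19.2% of all), and none was called lower in any of these. Their median log2 fold change was 0.15, against 0.12 over all 52 tested miRNAs.

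RPM rests on the authors' library totals, with which the median log2 fold change of all tested miRNAs was 0.41. ath-miR167a-5p, at 0.44 with those totals, had 17024 and 17051 RPM in SS, against 12529 and 12535 RPM in LS. Its call was lost under RLE scaling, without a factor and by DESeq2. ath-miR390a-5p, called with each of these, had 707 and 722 RPM in SS, against 474 and 450 RPM in LS. ath-miR393b-3p, not the strand to which the miR393 degradome sites were assigned, was not called with TMM factors. It had 17.7 and 16.4 RPM in SS, against 11.9 and 13.7 RPM in LS. ath-miR160a-5p was less abundant than each of these rows in every SS library. Over the stretch of targets that both degradome tables cover, miR160 had 3 entries in SS and 3 in LS, miR393 had 3 in SS and 5 in LS, miR390 had 1 in SS and 0 in LS, and miR167 had 0 in both lines. The whole SS table held 6 entries of miR160, 12 of miR393 and 3 of miR390.

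The tested miRNAs nearest to ath-miR160a-5p in their pattern over the 4 libraries, by the Euclidean distance of centred log2 RPM values, were bol-miR398a-5p, ath-miR159a and bra-miR2111b-3p. bol-miR398a-5p, at a distance of 0.875, had 1 and 2 reads in SS against 12 in each LS library, and was tested through its LS counts alone. ath-miR159a, a regulator of GAMYB-like transcription factors, was at 0.966, with 42.8 and 49.5 RPM in SS against 130 and 131 RPM in LS. bra-miR2111b-3p was at 1.89. The 3p rows of miR160 itself were farther away, at 2.31 for aly-miR160b-3p and 2.52 for ath-miR160a-3p, against a median of 2.71 over all others. Distances over these 4 libraries largely restate the differences between SS and LS given above, and are not a separate result.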

How the data were processed

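Small RNA of 18 to 30 nt and degradome tags were sequenced per the labels' protocols. Per the file headers, the deposited tables of known miRNAs hold raw read counts, library totals, RPM, log2 fold changes (SS over LS) and p-values. The deposited RPM equal count over library total, scaled to 1000000, with 0.01 in place of 0, and the authors' log2 values and p-values set single libraries against each other. The sources used here do not give the aligner, miRNA database, genome build or the authors' test. Columns were matched to libraries by title, since some descriptions name the table of the other pair. The deposited degradome tables give position, score, category and p-value as text.

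Counts went into edgeR 4.0.16 under R 4.3.3 (two-sided quasi-likelihood test, TMM), keeping rows that reached 10 counts in 2 libraries or more, with a Benjamini-Hochberg adjusted p threshold of 0.05. A standard error is the log2 fold change over the square root of F. For the arm ratio, 5p and 3p sums of a family were separate columns in a model of library, arm and arm by line. Permutation and Fisher tests used SciPy 1.17.1, and likeness used log2(RPM + 0.5). Alternatives were other scalings and filters, DESeq2 1.42.0, limma 3.58.1, a replicate block and left-out libraries. Members and lists were chosen with earlier results of these data known. Named were all miR160 rows and entries, the most abundant row of each other auxin family and the 3 miRNAs nearest to ath-miR160a-5p.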

Additional observations from a re-analysis of the deposited data

How the results depend on the processing

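ath-miR160a-5p was lower in SS and called in all 14 alternatives, from -3.13 to -2.46 on the log2 scale, with edgeR, DESeq2 and limma adjusted p no larger than 0.00292. That largest value came with the library number as a replicate block, where its log2 fold change was -2.78. ath-miR160a-3p passed the test and was lower at -0.19 under RLE scaling, -0.22 without any factor and -0.18 when 50 counts in 2 libraries were required, and it was higher at 0.21 with the authors' library totals. aly-miR160b-3p changed sign to 0.00786 with those totals, without a call. DESeq2 called 17 of the 52 miRNAs, against 27 by edgeR, ath-miR160a-5p among them. The arm ratio of miR160 ranged from -3.005 to -2.40 with a library left out. Its adjusted p was above 0.05 without either LS library, in fits with fewer libraries. The 5p share kept its direction under every alternative run. The 3 shared degradome sites stayed 3, but the alternatives could not change that number. All miR160 entries had category 0, a p-value written as 0 and, where shared, the same position. With the whole SS table the 3 were 50% of its miR160 sites, since the LS table breaks off early. Libraries with the same number did not deviate together (r = -0.26 over 52 miRNAs), and the labels do not pair them. As a block the number left 23 calls, and with the numbers crossed, an alternative chosen after the data were seen, 25. Where 1 library was left in a line, it was assumed to vary like the other line. Depth limits the 5p values of SS, which rest on 17 and 11 reads.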

Other observations

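Divided by 3, the position of each of the 6 miR160 sites in the SS degradome left a remainder of 1, and so did the 3 LS positions. BnaA07g20790D and BnaC06g20640D lay 3 bases apart, BnaA07g13830D and BnaC04g15900D 15 bases apart, and BnaA07g33740D and BnaC06g38360D, with the same 21-base site, 918 bases apart (position 352 against 1270). Of the 12 miR393 positions in SS, 11 left a remainder of 0, while the 382 known-miRNA entries of SS split into 188, 80 and 114 for remainders of 0, 1 and 2. Entries of one family and of pairs with near-identical sites cannot be taken as independent, and whether positions count from a start codon is not stated in the tables.

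miR393 had few reads of the strand to which its degradome sites were assigned. For miR160 that number is not known, since bna-miR160d had no row. ath-miR393a-5p had 1 and 0 reads in SS, where 3 counts would be 0.469 RPM in SS library 2, against 4 and 3 in LS, while the 3p rows of the family had 111 and 110 reads in SS and 78 and 96 in LS. All 12 entries of miR393 in the whole SS table were in category 0, and 4 of the 5 entries in the shorter LS table were. miR393 had too few 5p reads for a test of its arm ratio.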
